A study of Mus musculus with 3 samples.

Results

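The genes described here were those annotated as small nuclear RNA (snRNA), small nucleolar RNA (snoRNA) or small Cajal body RNA (scaRNA) with an expected count of at least 10 summed over 3 libraries. Of 2941 annotated genes of these 3 biotypes, 58 met the rule: 27 snRNA, 25 snoRNA and 6 scaRNA genes. They were 58 of 55536 genes in the tables and of 15091 genes with a summed count of at least 10. Because counts chose them, their levels are given as a description.

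Total RNA was sequenced after ribosomal RNA depletion from the cytosol of bone-marrow-derived macrophages, cells grown out from mouse marrow, of the strain C57BL/6J. The cells had received Lipid A, the part of bacterial lipopolysaccharide sensed by Tlr4, at 100 ng/ml for 12 hours, had been kept for 12 hours after washing it out, and had received 100 ng/ml again for 60 minutes. The 3 libraries formed 1 group, started from 1 µg of RNA each and shared 1 donor entry, so that nothing here compares treatments, and spread between libraries may be technical. All 3 carried the same treatment and fraction, and age and sex were not collected.

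Small nuclear RNAs are the RNA cores of the spliceosome: U1 pairs with the start of an intron, U2 with its branch site, and U12 takes the place of U2 in the minor spliceosome. Box C/D snoRNAs guide methylation and box H/ACA snoRNAs guide pseudouridylation of ribosomal RNA, a few such as U3 and U17 act in cutting ribosomal RNA precursors, and scaRNAs guide the same modifications on snRNAs in Cajal bodies. Newly made U1 and U2 pass through the cytosol, where Sm proteins are loaded, before they return to the nucleus. Most mammalian snoRNAs and scaRNAs are cut out of introns of host genes.

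Library depth over genes was 50807046 (replicate 1), 53364168 (replicate 2) and 46546422 (replicate 3) expected counts. The limit of 3 counts that a count of 0 allows, for counting error only, stood at 0.059, 0.0562 and 0.0645 CPM (counts scaled to the library total). All 8 macrophage markers averaged above 1 TPM (abundance scaled for effective length), at 31.8 to 3525 TPM. The lists of T cell, B cell, erythroid and mast cell markers stayed below 1 TPM in sum in every library, the highest neutrophil marker S100a8 averaged 3.14 TPM, and 3 collagen genes summed to 0.02, 6.42 and 2.75 TPM. Replicate 3 stood apart in the 3 of 8 listed nuclear RNAs that averaged above 1 TPM, Malat1, Neat1 and Rn7sk. Malat1 had 112, 90.6 and 452 TPM, Neat1 10.9, 7.10 and 29.7 TPM, and Rn7sk, the 7SK RNA, 27778, 26912 and 68232 TPM, in replicates 1, 2 and 3. Of those below 1 TPM, Firre and Kcnq1ot1 were highest in replicate 3 in TPM and Mir99ahg was about level. Pvt1 was highest in replicate 1 in TPM, and Meg3, at 0, 0.03 and 0 TPM, was too low to place. In CPM, replicate 3 over the mean of replicates 1 and 2 was 3.39 for Firre, 1.91 for Mir99ahg and 1.21 for Pvt1. It was 6.70 for Kcnq1ot1 and 0.917 for Meg3, both close to 0 TPM. In bulk samples, fewer cells of a type and less RNA per cell cannot be told apart.

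The sequences of the members carry much of what follows, because 23 of the 58 genes share their sequence with at least 1 other member, in 6 sets, and the 58 genes hold 41 distinct sequences. Reads of identical copies cannot be assigned to 1 gene. All sequences are GENCODE M21 transcripts on build mm10, written 5′ to 3′ as DNA. U2 copies of 191 bases are shown first, with capitals at the positions at which these 3 differ, because single bases are all that sets these copies apart. Rnu2-10 (chr11:101658238-101658428, plus strand) is identical to 3 other members, Gm25939 lies at chr1:72255008-72255198 (plus) and Gm24497 at chr1:72244213-72244403 (plus).
Rnu2-10: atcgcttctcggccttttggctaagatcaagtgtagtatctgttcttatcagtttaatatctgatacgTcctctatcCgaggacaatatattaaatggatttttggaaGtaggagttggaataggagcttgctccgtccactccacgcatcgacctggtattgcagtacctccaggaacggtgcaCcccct
Gm25939: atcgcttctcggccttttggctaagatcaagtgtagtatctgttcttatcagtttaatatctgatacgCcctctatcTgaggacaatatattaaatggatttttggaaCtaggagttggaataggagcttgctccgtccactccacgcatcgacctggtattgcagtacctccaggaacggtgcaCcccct
Gm24497: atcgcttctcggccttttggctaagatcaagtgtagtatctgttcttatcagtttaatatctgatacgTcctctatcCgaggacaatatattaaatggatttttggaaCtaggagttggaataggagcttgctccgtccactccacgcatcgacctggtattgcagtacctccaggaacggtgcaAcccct
Counted from 1 at the 5′ end and with the base of Rnu2-10 first, Gm25939 carries T69C, C78T and G109C, and Gm24497 carries G109C and C186A. The identical pair Gm23472 and Gm23444 carries G109C alone, Gm26316 carries C170T alone, Gm25360 has 4 changes and Gm22973 has 9.

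Among 13 U1 copies, Gm22513 (chr12:54696782-54696945, plus) was the copy with the most counts, and its bases 46 to 75 are shown with its difference from Rnu1a1, T60C, in capitals. Gm24305 carries A26G, and the identical pair Gm22614 and Gm25890 is 6 base changes or gaps away from Rnu1a1.
Gm22513: cccagggcgaggctCatccattgcactccg

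The U3 gene Rnu3b1 (chr11:87443237-87443452, plus) is listed under 2 identifiers, of 216 and 215 bases, and the only difference is the last base, in capitals. The same holds for Rnu3b2, Rnu3b3 and Rnu3b4.
Rnu3b1: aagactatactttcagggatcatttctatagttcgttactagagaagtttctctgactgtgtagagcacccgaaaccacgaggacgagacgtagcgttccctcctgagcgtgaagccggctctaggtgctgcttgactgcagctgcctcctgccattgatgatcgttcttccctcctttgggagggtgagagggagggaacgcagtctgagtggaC

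Gm24265 (chr5:115489459-115489599, plus) and Gm24407 (chr5:115490254-115490394, plus), annotated as snRNA without a further name, are 141 bases long and differ at the capitals, G88A and C99A with the base of Gm24265 first. They are shown because both were highest in replicate 1 in TPM, unlike most snRNA members, an order that changed in the second tables described below.
Gm24265: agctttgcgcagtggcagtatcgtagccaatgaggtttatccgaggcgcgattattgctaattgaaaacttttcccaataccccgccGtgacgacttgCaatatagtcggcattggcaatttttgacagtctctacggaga
Gm24407: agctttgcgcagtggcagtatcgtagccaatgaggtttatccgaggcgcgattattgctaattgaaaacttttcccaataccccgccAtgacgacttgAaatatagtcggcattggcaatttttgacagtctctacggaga

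Rnu12 (chr15:83149644-83149794, plus), the U12 RNA and the only named minor spliceosomal member, holds ATTTTTG in capitals, a run of the kind bound by Sm proteins. The same run is in the U2 copies and in Gm24265 and Gm24407 above.
Rnu12: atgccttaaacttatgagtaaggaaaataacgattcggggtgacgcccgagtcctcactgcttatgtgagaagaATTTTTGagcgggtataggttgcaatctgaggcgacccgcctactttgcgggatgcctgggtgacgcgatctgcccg

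The scaRNA with the most counts, Gm22009 (chr3:69085105-69085447, minus), lies in an intron of Kpna4, and its first 129 of 343 bases are shown with TGATGA, the C box sequence of box C/D RNAs, in capitals. Scarna6 (chr1:87784556-87784820, plus) and Gm25395 (chr1:87776938-87777209, plus), both in introns of Atg16l1, are shown with TGATGA and the D box sequence CTGA in capitals.
Gm22009: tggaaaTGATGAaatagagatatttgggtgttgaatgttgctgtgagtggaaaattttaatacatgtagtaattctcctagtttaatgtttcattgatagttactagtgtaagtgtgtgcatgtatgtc
Scarna6: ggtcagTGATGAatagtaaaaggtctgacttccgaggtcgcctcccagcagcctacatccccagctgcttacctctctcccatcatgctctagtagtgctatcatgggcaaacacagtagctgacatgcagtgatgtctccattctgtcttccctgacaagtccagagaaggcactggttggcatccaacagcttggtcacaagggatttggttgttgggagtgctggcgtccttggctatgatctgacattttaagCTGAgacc
Gm25395: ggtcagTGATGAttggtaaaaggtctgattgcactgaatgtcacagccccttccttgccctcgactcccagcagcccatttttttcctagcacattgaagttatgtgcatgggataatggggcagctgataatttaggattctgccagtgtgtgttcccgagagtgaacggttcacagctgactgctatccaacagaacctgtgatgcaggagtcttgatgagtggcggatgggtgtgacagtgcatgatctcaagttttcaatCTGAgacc

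Snora73b (chr4:132352322-132352526, minus) and Snora73a (chr4:132352775-132352979, minus), the U17 RNAs, lie within both Rcc1 and Snhg3 and are 96.6% identical, with 7 differing positions of 205 in capitals. The authors' posterior SD of the count was 1.12% and 1.61% of its mean in replicate 3.
Snora73b: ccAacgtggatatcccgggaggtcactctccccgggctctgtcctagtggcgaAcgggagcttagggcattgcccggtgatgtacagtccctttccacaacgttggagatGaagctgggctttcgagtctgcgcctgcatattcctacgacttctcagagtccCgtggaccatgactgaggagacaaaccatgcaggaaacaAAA
Snora73a: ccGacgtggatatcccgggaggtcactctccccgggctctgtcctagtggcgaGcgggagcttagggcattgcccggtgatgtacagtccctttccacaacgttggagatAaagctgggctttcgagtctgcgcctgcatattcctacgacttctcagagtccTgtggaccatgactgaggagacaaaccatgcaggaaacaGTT

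Snord22 (chr19:8725866-8725991, plus), the U22 snoRNA, is shown as the shortest member, with CTGA near its end in capitals.
Snord22: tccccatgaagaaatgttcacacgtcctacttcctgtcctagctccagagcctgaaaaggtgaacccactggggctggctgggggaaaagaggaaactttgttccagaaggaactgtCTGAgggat

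Over the 31 snoRNA and scaRNA members, TGATGA lay in the first 25 bases of 9 (29.0%) and CTGA in the last 25 bases of 21 (67.7%), 8 of them U3 entries of a pair of nearly identical sequences. ACANNN formed the last 6 bases of 7 (22.6%). The shares were 21.4%, 56.5% and 19.3% in all 1558 annotated snoRNA and scaRNA genes, and 0.864%, 11.7% and 2.45% in 141515 transcripts of at least 60 bases. Of the reverse complements in the same windows, TCATCA was in the first 25 bases of 0 members and TCAG in the last 25 bases of 1. An RNA of the opposite strand would hold them at the other ends, so that strand was not tested. None of the 27 snRNA members held any of these motifs in those windows.

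Length set the members apart from the other annotated small RNAs. Members were 126 to 414 bases long with a median of 191, against a median of 108 bases over all annotated genes of the 3 biotypes. The tables gave an effective length, the number of start positions a fragment can have, of 0 to all 1830 genes (62.2%) of 126 bases or less, and the labels give a size range of 250 to 400 for the libraries. No gene of up to 100 bases, of 679, and 1 of 1151 genes above 100 and up to 126 bases were members. In rising length, 8 of 833 genes up to 150 bases (0.960%), 28 of 240 up to 200 bases (11.7%), 14 of 27 up to 250 bases (51.9%) and 7 of 11 longer ones (63.6%) were members. Most box C/D snoRNAs and the U6 and U7 snRNAs are shorter than this limit, and no member carried a U6 or U7 symbol. Absence from the members is therefore no measure of absence from the cytosol.

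**Figure D1:**
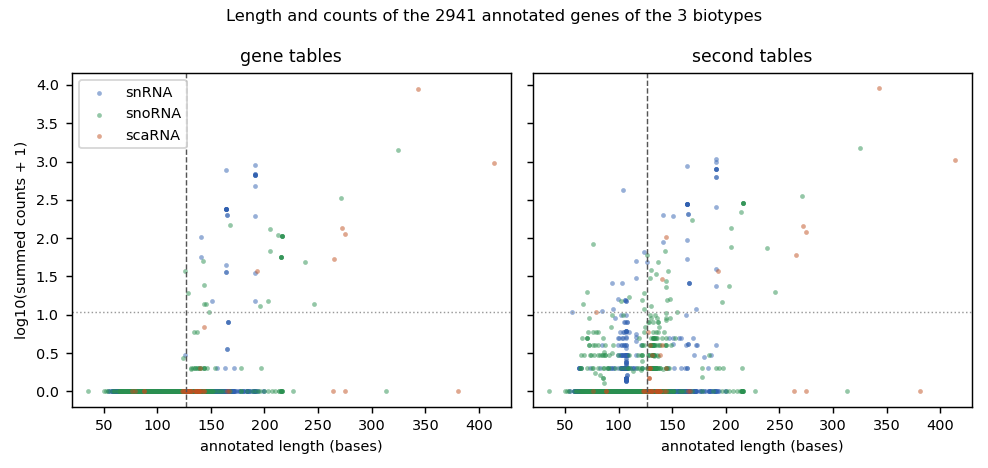
Annotated length in bases (x axis) against the summed counts of 3 libraries, as log10(counts + 1) (y axis), for 2941 annotated snRNA, snoRNA and scaRNA genes, in the gene tables (left) and the second set of tables (right). The dashed line stands between 126 and 127 bases, where effective length starts in the gene tables, and the dotted line at 10 counts; 25 genes of up to 126 bases reach 10 counts in the right panel and 1 does in the left.

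The threshold fell among thinly covered genes. Snord15a, a box C/D snoRNA of Rps3 with a sum of 10 counts, and Snora74a, the U19 RNA with 11.9 counts, were just inside, and the identical U1 copies Rnu1b6, Gm24830 and Gm26232 with 7.13 counts each and Gm22442 with 6 were just outside. The members together held 107, 97.9 and 244 CPM in replicates 1, 2 and 3, and 0.370%, 0.199% and 0.675% of all TPM. Replicate 3 was highest on both scales, and replicates 1 and 2 lay closer to each other in CPM. The mean share was 0.415% ± 0.241 of TPM and 0.0150% ± 0.00818 of expected counts (SD, n = 3). The 2 shares differ because TPM divides by effective length: Gm24265, with 102 counts and an effective length of 2.64 bases in replicate 1, averaged 166 TPM, while Scarna10, with 1433 counts and 112 bases, averaged 52.3 TPM. TPM of the shortest members thus rests on a few start positions. Of the members, 48 (82.8%) stood above 1 TPM in all 3 libraries, against 62.1% of all genes with a summed count of at least 10. Levels between genes are given below per length as TPM, and sums over copies as CPM.

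**Figure D2:**
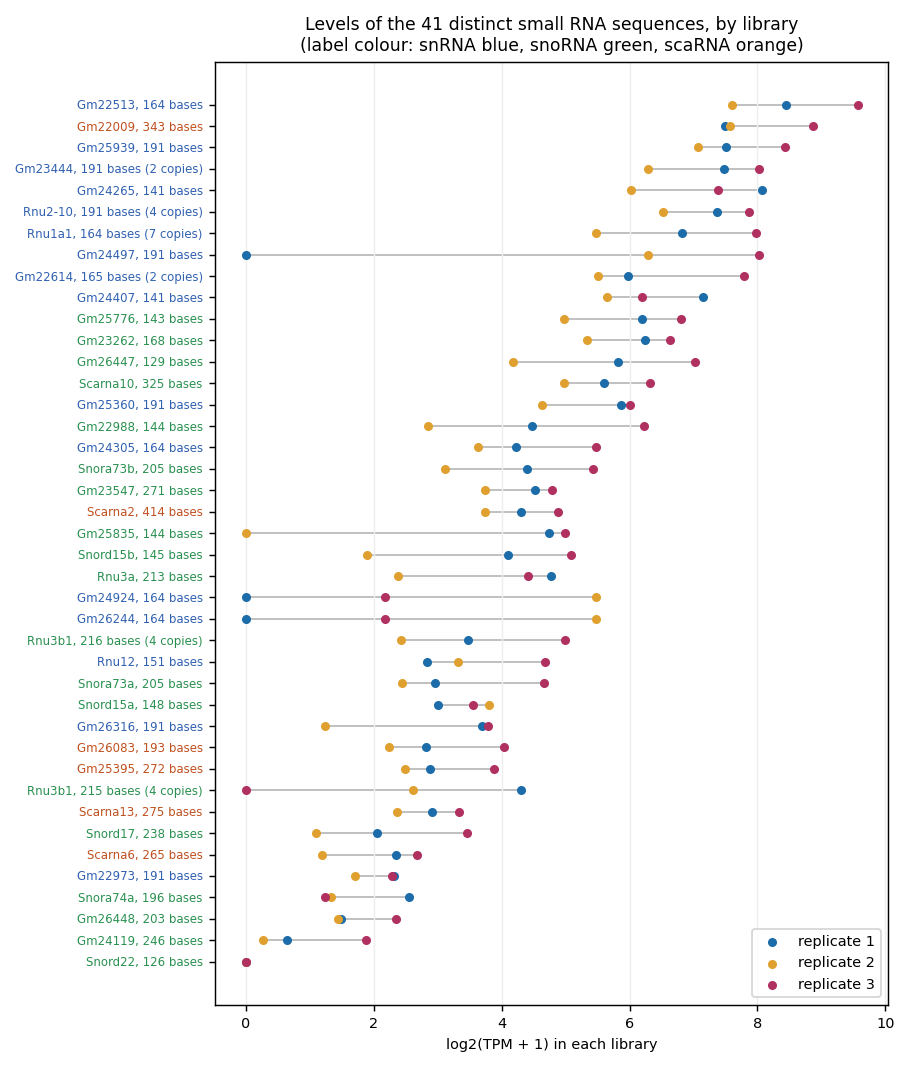
Each row is 1 of 41 distinct sequences, ordered by mean TPM, and each point the level in a library as log2(TPM + 1), with grey lines joining the lowest and highest library. Replicate 3 lies furthest right in 31 of 41 rows, and Gm24497, Gm25835, Gm24924, Gm26244, the 215-base Rnu3b1 entry and Snord22 have points at 0.

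U1, which recognises the start of introns, was represented by 13 members. Gm22513 was the highest member by mean TPM, with 348, 194 and 759 TPM in replicates 1, 2 and 3. The authors' posterior SD of its count was 0%, 0% and 0.118% of the mean. The 7 identical copies that include Rnu1a1 had 112, 43.6 and 250 TPM each, with equal counts of 62.5, 33.5 and 140 each. Here the posterior SD was 88.6%, 81.0% and 92.5% of the mean, and the authors' TPM interval for Rnu1a1 in replicate 3 ran from 0.000253 to 435, so a copy's own value is the share of reads the software gave it. Gm22614 and Gm25890 had 62.2, 44.5 and 219 TPM each and Gm24305 had 17.6, 11.4 and 43.7 TPM. Replicate 3 was highest and replicate 2 lowest in each of these. The copies Gm24924 (in an intron of Ss18) and Gm26244 (in an intron of Rock1), 1 base from Rnu1a1, went the other way, with 0, 43.6 and 3.52 TPM each. In the second tables, made from the reads directly, both had less than 1 count in every library, so their height in replicate 2 was not found there. Summed over the 13 copies, which removes the splitting among them but not that with U1 copies outside the members, U1 had 14.01, 9.93 and 36.3 CPM in the gene tables and 13.3, 9.24 and 33.7 CPM in the second tables.

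U2, which pairs with the branch site, had 11 members of 191 bases. Gm25939 led with 180, 134 and 345 TPM and, like Gm22513, carries its own combination of bases. Gm23472 and Gm23444 had 177, 76.8 and 260 TPM each, and Rnu2-10 and its 3 identical copies had 165, 91.3 and 231 TPM each. Gm25360 had 57.3, 23.8 and 63.4 TPM, Gm26316 11.8, 1.36 and 12.7 TPM, and Gm22973, with 14 counts in all and 9 changes from Rnu2-10, 3.98, 2.27 and 3.87 TPM. Replicate 3 was again highest and replicate 2 lowest, except that Gm22973 was about level in replicates 1 and 3. Gm24497 had 0, 76.8 and 260 TPM, the largest SD of log2(TPM + 1) of any member at 4.22. The second tables gave Gm24497 186, 226 and 558 counts in the same order, so its 0 in replicate 1 was not found there. In sum U2 had 31.3, 24.998 and 59.2 CPM in the gene tables and 33.2, 25.9 and 58.8 CPM in the second tables.

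The remaining snRNA members were Rnu12 and the pair on chromosome 5. Rnu12 had 6.10, 8.98 and 24.6 TPM on 2, 4 and 8 counts, so its order between libraries is not resolved at this depth. The second tables gave it 49.0, 56.0 and 90.8 counts. Gm24265 had 267, 64.3 and 166 TPM and Gm24407 141, 49.2 and 72.5 TPM, both highest in replicate 1. Their sum was 1.59, 0.562 and 0.988 CPM, and 1.83, 0.949 and 2.12 CPM in the second tables, where replicate 3 was highest. Which of replicates 1 and 3 was higher for this pair thus changed with the tables, while replicate 2 was lowest in both.

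U3, the box C/D RNA that acts at the first cuts of the ribosomal RNA precursor, had 9 members. The 4 entries of 216 bases, Rnu3b1 to Rnu3b4, had 10.1, 4.36 and 30.7 TPM each, and the 215-base entries of the same genes had 18.6, 5.14 and 0 TPM each. The first set was highest in replicate 3 and the second was at 0 there, with 87.7, 52.8 and 276 counts against 159, 61.2 and 0 counts in sum. The second tables placed all counts on the 216-base entries. Rnu3a, of 213 bases on chromosome 10, had 26.3, 4.19 and 20.3 TPM, and in the second tables its counts of 96, 37 and 85.6 all fell to another entry of the same symbol, 214 bases long. Summed over 9 members, U3 had 5.92, 2.36 and 6.85 CPM in the gene tables and 6.39, 3.34 and 9.70 CPM in the second tables. Replicate 2 was lowest and replicate 3 highest in both, and replicates 1 and 3 were closer in the gene tables. The sum from the second tables leaves out the 214-base Rnu3a entry, which is not a member, so the 2 sums cover unlike sets. With that entry, the ratio of replicate 3 to the mean of the others was 1.88 in the second tables, against 1.65 in the gene tables.

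The other box C/D members were thinly covered. Snord17, in an intron of Snx5, had 3.14, 1.14 and 10.02 TPM on 10, 5 and 33 counts. Snord15b, at an exon of Rps3, had 16.1, 2.71 and 32.9 TPM, and Snord15a 7.02, 13.0 and 10.7 TPM on 2, 5 and 3 counts. Snord17 and Snord15b were highest in replicate 3, and Snord15a, at the count threshold, was not. Snord22, which acts in maturation of the small ribosomal subunit RNA, had 8.99, 4.99 and 21.99 expected counts but is listed at 0 TPM because its effective length was 0. Snord118, the U8 RNA, was not a member: the gene tables gave it no count and the second tables gave it 11, 7 and 15 counts.

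Box H/ACA members included the U17 RNAs, which act in the cuts that release the small subunit RNA. Snora73b had 20.0, 7.65 and 41.9 TPM and Snora73a 6.77, 4.40 and 24.2 TPM. A related snoRNA gene, Gm26448 in an intron of Rpsa, 87.8% identical to Snora73b, had 1.80, 1.71 and 4.07 TPM. All 3 were highest in replicate 3, and in sum they had 0.975, 0.625 and 2.70 CPM, with 0.901, 0.587 and 2.56 CPM in the second tables. Snora74a had 4.86, 1.51 and 1.35 TPM and was highest in replicate 1, on 11.9 counts.

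**Figure D3:**
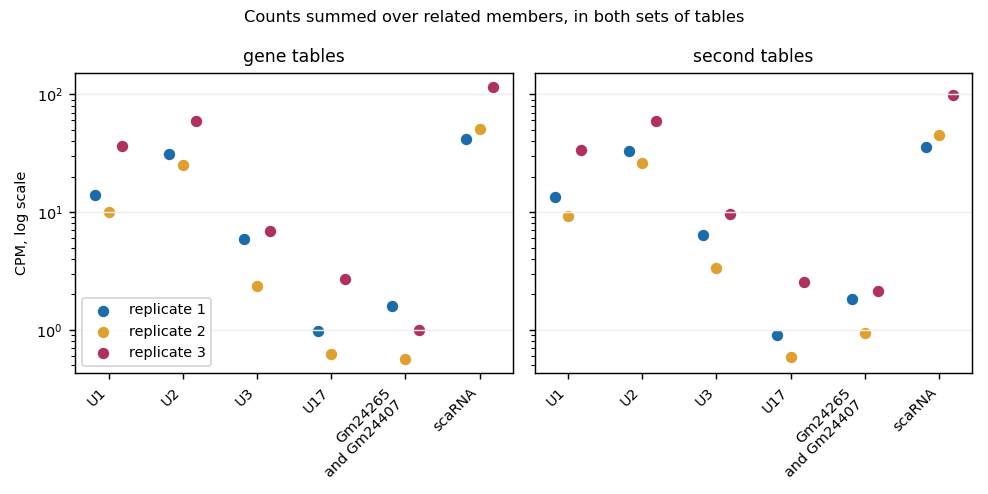
CPM (y axis, log scale) summed over the 13 U1, 11 U2, 9 U3 and 3 U17 members, the pair Gm24265 and Gm24407 and the 6 scaRNA members, in each library, from the gene tables (left) and the second tables (right). Replicate 3 is highest in every group in the second tables and in every group but Gm24265 and Gm24407 in the gene tables. The U3 sum on the right holds no Rnu3a counts, which fell to an entry that is not a member.

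Cajal body RNAs held 41.3, 50.2 and 115.6 CPM, most of it from 1 gene. Gm22009 had 1730, 2374 and 4763 counts, the most of any member, and 179, 189 and 469 TPM. Scarna2 had 18.7, 12.3 and 28.5 TPM, and the much shorter Gm26083 in Snhg20 6.03, 3.73 and 15.3 TPM. Gm25395 had 6.34, 4.58 and 13.8 TPM, its neighbour Scarna6 4.10, 1.28 and 5.41 TPM, and Scarna13, the U93 RNA in an intron of Snhg10, 6.51, 4.14 and 9.04 TPM. All 6 were highest in replicate 3, and Gm22009 alone among them was lowest in replicate 1. Scarna10, annotated as snoRNA in these tables, behaved like them with 47.6, 30.5 and 78.7 TPM on 402, 336 and 695 counts.

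A further 8 snoRNA members had a Gm symbol only. Gm25776 in an intron of Gtf2a1 had 72.4, 30.4 and 111 TPM, and Gm23262, at an exon of Eif4g2, 74.9, 39.4 and 98.6 TPM. Gm26447 (Eif4a2) had 55.4, 17.2 and 130 TPM, Gm22988 (Eif4a1) 21.1, 6.22 and 73.7 TPM and Gm23547 (Phb2) 21.9, 12.3 and 26.7 TPM. Gm25835, also in Eif4a1, had 25.7, 0 and 30.6 TPM on 13 counts, and Gm24119 in Slc25a3 0.56, 0.20 and 2.69 TPM. In TPM, each of these was highest in replicate 3 and lowest in replicate 2, as was Gm26448 among the U17 relatives. That order rests on few counts for Gm26447 (4.99, 1.99 and 10.99), Gm22988 (4.93, 1.95 and 16.8), Gm25835 (6, 0 and 7) and Gm24119 (2, 1 and 10). For Gm26448, with 3, 4 and 7 counts, it is not resolved, and CPM was lowest in replicate 1. Reads of the host's exon and of the RNA cannot be told apart for Gm23262, Gm26447, Gm22988 and Gm23547, nor for the other 5 members that touch a host exon, Scarna10, Snord15b, Snord22, Gm26083 and Snora74a.

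Replicate 3 was the highest library for most members. TPM was highest in replicate 3 for 45 of 58 members (77.6%), against 19.6% of all genes with a summed count of at least 10, and CPM for 47 of 58 (81.0%), against 39.7%. Counting each distinct sequence once gave 31 of 41 (75.6%) in TPM. TPM was highest in replicate 1 for 9 members, against 54.2% of all genes. It was lowest in replicate 2 for 46 members, against 36.1% of all genes, and lowest in replicate 3 for 5, against 44.3%. TPM per count was itself lower in replicate 2: Gm22513 had 1.80, 1.30 and 1.78, at effective lengths of 7.4, 8.38 and 6.7 bases. Summed over members, TPM fell from 3700 in replicate 1 to 1992 in replicate 2, but CPM only from 107 to 97.9. Members lowest in CPM were not counted by library. On the log2(TPM + 1) scale, 31 members (53.4%) stood at least 1.5-fold above both other libraries in replicate 3, against 0.557% of all genes. These 31 made up 36.9% of the 84 genes that did so, 19 of which were protein-coding. In replicate 1 it was 7 members (2.27% of all genes) and in replicate 2 it was 2 (0.484% of all genes). The added 1 TPM damps differences in genes of low TPM, while short effective lengths raise the members' TPM per count. Shares of members and of all genes are thus not on a like scale in these 1.5-fold counts. CPM ratios, given next, do not depend on length.

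The ratio of CPM in replicate 3 to the mean of replicates 1 and 2 had a median of 2.40 over the members, 2.16 over distinct sequences and 1.02 over all genes. It ranged from 0 for the 215-base U3 entries to 7.40 for Gm24119 and was above 1 for 49 members. Gm24119 had 2, 1 and 10 counts and so met the count rule only through replicate 3. The same held for Gm22988, Gm26447, Snord15b, Rnu12, Gm26448 and Gm25835, which like Gm24119 were highest there in TPM. It also held for Gm22973, Snord15a and Snora74a, which were not. The counts of members highest in replicate 3 and the median ratio include all of these. At summed counts from 10 to below 100, the median was 2.13 over 25 members and 1.20 over all 3623 genes. There the 5th and 95th percentiles of all genes were 0.247 and 6.88, and 1 member lay above the upper one. From 100 to below 1000, the median was 2.77 over 31 members and 1.04 over all 3115 genes. The same percentiles were 0.638 and 1.81, and 25 members lay above the upper one. By class the ratio of summed CPM was 3.04 for U1, 2.10 for U2, 1.65 for U3 and 3.38 for U17. Malat1, Neat1 and Rn7sk had ratios of 4.71, 3.71 and 2.55. Their part, and that of nuclear RNA in the fraction, in the members' values was not tested.

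**Figure D4:**
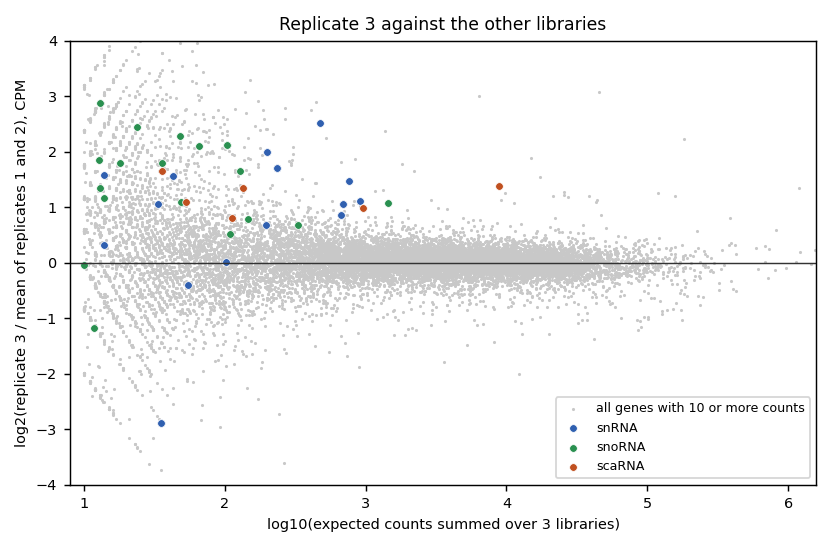
Summed expected counts over 3 libraries (x axis, log10) against the log2 ratio of CPM in replicate 3 to the mean of replicates 1 and 2 (y axis), with all genes of 10 or more counts in grey and members in colour by biotype. Most members lie above the line at 0, at a median ratio of 2.40 against 1.02 over all genes, within a grey cloud that is wide at low counts; 66 genes beyond an absolute log2 ratio of 4 and the 4 members with a ratio of 0 are not drawn.

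Variation between libraries exceeded counting noise in most members. In a chi-square test per gene on rounded expected counts (at least 30 in sum, Benjamini-Hochberg adjusted over 13064 genes), 48 of 48 members passed an adjusted p of 0.05, against 69.3% of all genes tested. In distinct sequences it was 31 of 31. Among genes with 30 to below 100 counts 15 of 15 members passed, against 37.6% of all genes there, and at 100 to below 1000 counts 31 of 31, against 55.5%. With a minimum of 10 counts 52 of 58 members passed, against 63.7% of all genes, and 40 of 42 did in the second tables, against 72.1%. Without replicate 3, 30 of 40 members passed, against 53.9% of all genes tested, and without replicate 2, 36 of 45, against 51.3%. The median SD of log2(TPM + 1) was 1.10 over the members and 0.117 over all 15091 genes. It was 0.507 and 0.0880 in the second tables, and 0.431 and 0.122 on TMM-scaled CPM. The added 1 TPM compresses the SD of genes at low TPM but less that of members, whose short effective lengths raise TPM. At 10 to below 100 counts the median SD was 1.16 over members and 0.0457 over all genes, so these medians are not on a like scale. For identical copies the chi-square test also reads the splitting of reads, so that the sums by family above are the firmer values.

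Most host genes did not share the height of the RNAs inside them in replicate 3. Of the members, 37 lay within a longer gene on the same strand, 28 in introns and 9 touching an exon, in 22 hosts of which 17 were protein-coding. Host here means position only, also around the U1, U2 and U3 genes in Tex14, Rdm1, Ss18 and Rock1. Counts of those U1, U2 and U3 genes were split among related copies. Counting each sequence and host once, and hosts with at least 10 counts, gave 27 pairs with 21 hosts. The ratio of replicate 3 to the other libraries was higher for the small RNA than for its host in 23 of 27 pairs, and in 15 of 18 pairs in introns. Its median was 2.55 for the small RNAs and 0.952 for the hosts, which ranged from 0.497 to 2.25. Per length, Gm22009 had 179, 189 and 469 TPM, against 21.9, 16.98 and 13.5 TPM for Kpna4, above its host in every library. In counts, Gm22009 was highest in replicate 3, at 34.1, 44.5 and 102 CPM, against 124, 112 and 95.8 CPM for Kpna4, which was lowest there. Scarna10 had 7.91, 6.29 and 14.9 CPM, against 4.76, 5.98 and 6.87 CPM for Ncapd2, and both were highest in replicate 3. Snora73b had 0.684, 0.349 and 1.62 CPM, against 7.81, 5.96 and 7.76 CPM for Rcc1. Snhg3, which also contains Snora73b and Snora73a, was not compared, so their pairs rest on Rcc1 alone. Snord22 had 0.177, 0.0935 and 0.472 CPM, against 3.15, 2.38 and 3.72 CPM for the noncoding host Snhg1. Scarna10 and Snord22 touch exons of their hosts, so their reads and the host's cannot be told apart. The 4 exceptions were Gm24924, Gm26244, Snora74a and the 215-base U3 entries, all but Snora74a with counts split among related copies.

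**Figure D5:**
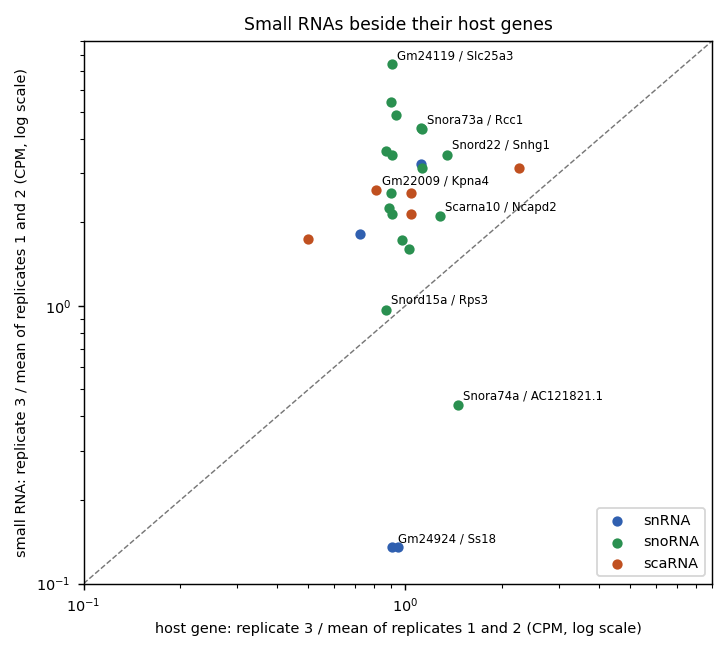
Ratio of CPM in replicate 3 to the mean of replicates 1 and 2, for the small RNA (y axis) and its host gene (x axis), both on log scales, for pairs of a distinct sequence and a host with at least 10 counts. Of 27 pairs 23 lie above the dashed line of equality, and hosts range from 0.497 to 2.25; the U3 pair at 0 is not drawn.

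Genes for the proteins that make, modify and carry these RNAs were measured beside them, as lists not chosen by level. Of 98 genes found, 92 stood above 1 TPM in a limma test of log2(TPM + 1) against 1 TPM, with adjusted p under 0.05 over all 20685 genes tested, against 61.0% of 14374 nuclear protein-coding genes. All 5 box C/D proteins passed, led by Snu13 at 15.1 ± 1.81 TPM, with the methylase Fbl at 11.1 ± 0.442 TPM (SD, n = 3). Of 6 box H/ACA genes 5 passed, led by Nhp2 at 13.0 ± 1.86 TPM, and Dkc1, the pseudouridine synthase, was low at 1.37 ± 0.151 TPM. All 7 Sm proteins, which form the ring on U1 and U2, passed, led by Snrpe at 31.6 ± 3.63 TPM. The SMN complex loads that ring in the cytosol. Its list of 12 genes also held Prmt5, Wdr77 and Clns1a, which are not subunits of the complex. Of the 12 genes 10 passed, led by Strap at 17.8 ± 1.25 TPM. Gemin4 and Gemin8 were below 1 TPM at 0.670 ± 0.0361 and 0.573 ± 0.0252 TPM.

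The U1 and U2 proteins (7 of 7 above 1 TPM) were led by Snrpc at 27.5 ± 1.24 TPM and the minor spliceosome proteins (7 of 7) by Zcrb1 at 28.4 ± 3.56 TPM. The export, capping and import genes (7 of 7) were led by Xpo1, an exporter, at 25.03 ± 6.11 TPM. Snapc5 led the 5 genes of snRNA transcription at 17.1 ± 1.45 TPM and Ints6 the 14 Integrator genes, which cut the ends of snRNA precursors, at 9.91 ± 1.502 TPM, with all of both lists above 1 TPM. Usb1, which trims U6, was highest of all lists at 32.5 ± 5.98 TPM and Pih1d1 led snoRNP assembly at 6.53 ± 0.968 TPM. Of the Lsm genes 8 of 9 passed, led by Lsm4 at 16.3 ± 1.59 TPM, and Lsm11, the U7 ring protein, was below at 0.390 ± 0.0794 TPM. Of the Cajal body genes 3 of 5 passed, led by Ell at 4.62 ± 0.282 TPM with the scaffold Coil at 1.68 ± 0.355 TPM. Zc3h8 was below at 0.600 ± 0.0794 TPM, and Wrap53, which brings RNAs to Cajal bodies, and the H/ACA assembly gene Shq1 were not placed on either side at 1.25 ± 0.148 and 0.797 ± 0.160 TPM (limma adjusted p of 0.0727 and 0.0926). The calls below 1 TPM depend on the scale: with TPM rescaled over nuclear coding genes 97 genes were above and 0 below, and 76 were above and 12 below in the second tables, against 92 and 4 here. Unlike the RNAs, these genes had a median ratio of replicate 3 to the others of 1.04 in CPM, and 9 of 98 were highest in TPM in replicate 3, against 19.6% of all genes with at least 10 counts.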

How the data were processed

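Expected counts and TPM per gene were deposited by the authors for each library, quantified from a transcriptome alignment on mm10 with GENCODE M21, per the file headers and the text deposited with the libraries. Posterior SDs of counts and TPM intervals are also the authors' deposited values. The second tables hold estimated counts and TPM per transcript, made directly from the reads by the authors, and were summed to genes. No source used here names the aligner, the quantification tools or the strand setting.

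Members, gene lists and the rule for named genes were chosen with earlier results of these data known. All 55536 genes matched the annotation, and entries that are not genes (0.0772% to 0.378% of counts) were left out. Named were the 3 highest members of each class, preset RNAs, the 5 members with the largest SD, those beside the threshold and the highest or unplaced genes of each protein list, and the remaining members were named after their values were seen. CPM was computed from library totals. Related copies were members of at least 75% identity. A gene's host was the longer same-strand gene around it with the most counts. The level test was a limma 3.58.1 fit (R 4.3.3) of log2(TPM + 1) with trend and robust options, over genes above 0 TPM in any library. Counting noise was tested by chi-square (2 degrees of freedom, scipy 1.17.1), assuming independent reads. Both tests were checked on simulated data. TMM factors came from edgeR 4.0.16 and size factors from DESeq2 1.42.0, on expected counts rounded to whole numbers. With 1 group, replicates could not be paired across groups.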

Additional observations from a re-analysis of the deposited data

Results flagged for a closer look

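The second tables held counts for small RNAs that the gene tables could not quantify. Of the annotated genes with an effective length of 0 in the gene tables that were not members, 24 had at least 10 estimated counts there, above the 3 counts that a count of 0 allows. Gm25047, an snRNA gene of 104 bases on chromosome X that lies in no longer gene, had 121, 179 and 123 counts in replicates 1, 2 and 3, 423 in all, and replicate 2 was highest, unlike most members. Gm24339, a snoRNA gene of 76 bases within Cep295, had 27, 14 and 43 counts, 84 in all. Gm25605, an snRNA gene of 124 bases within Aoah, had 13, 3 and 48 counts, 64 in all. The last 2 were highest in replicate 3.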

How the results depend on the processing

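No paired analysis was possible because all libraries belong to 1 group. In the second tables the members held 0.0691% of TPM, against 0.415% in the gene tables, and the median level of the 32 named members was 4.53 TPM, against 21.5 TPM. Rescaled over nuclear protein-coding genes, that median was 72.9 TPM. Effective lengths differ between the tables, so TPM of these RNAs has no fixed scale. The number of members varying beyond sampling noise was 48, and 30 to 40 with a replicate left out, with 30 when it was replicate 3. Of the named members, mean TPM moved by more than the SD between libraries for 23 of 32 in the second tables. It did so for 32 of 32 after rescaling over coding genes and for 0 of 32 when a replicate was left out. These last 2 outcomes were fixed by arithmetic and say nothing about the members. Rescaling by so large a factor must exceed that SD, and leaving out a replicate cannot. The median SD of log2(TPM + 1) over the members was 1.10, and 0.507 in the second tables and 0.431 on TMM-scaled CPM. The remaining counts and shares stayed within 1.5 times, or within 1 SD between libraries, under every other alternative run. For the shares, leaving out a replicate could not exceed 1 SD and so is no check on them. The family ratios of replicate 3 to the others, added after seeing the data, moved by less than 1.5 times in the second tables, in TPM and with TMM scaling.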
